A study of Mus musculus with 8 samples.

Results

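The genes examined here write, copy and erase DNA methylation: *Dnmt1*, *Uhrf1*, *Dnmt3a*, *Dnmt3b*, *Dnmt3l*, *Tet1*, *Tet2* and *Tet3*. They were chosen by name for their function, and are 8 of the 55401 genes counted in each library. All 8 passed the filter on low counts, as did 17532 genes in total. None was chosen for its value in these libraries, but the choice was made with earlier results of the same data known.

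Methylation of cytosine in CpG dinucleotides is copied onto the new strand after replication by DNMT1, which UHRF1 brings to sites where only the old strand is methylated. DNMT3A and DNMT3B methylate DNA without such a template, and DNMT3L, which lacks catalytic activity, stimulates both. The TET dioxygenases oxidise 5-methylcytosine with 2-oxoglutarate as a cofactor, and the oxidised base is diluted by replication or cut out by base excision repair. Mouse embryonic stem cells (ESCs) kept with inhibitors of MEK and GSK3 (2i) are known for low DNA methylation and for repression of the de novo enzymes.

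Total RNA of mouse ESCs was sequenced from 2 Control, 3 Zzz3 auxin and 3 Yeats2 auxin libraries. In the auxin groups ZZZ3 or YEATS2, each part of ATAC, a coactivator complex with histone acetyltransferase activity, carried an auxin-inducible degron (AID), and cells received 500 µM auxin for 24 h. All cultures were grown in serum with LIF and 2i, and the degron acts through the plant protein Tir1. The labels give neither the line nor the treatment of the controls, so an effect of auxin, of the tag or of the line cannot be told apart from an effect of the depletion. They also do not state whether libraries of a group came from separate cultures, so P values measure the spread between these libraries, which may be technical. Yeats2 auxin replicates 1 and 3 were far more alike than any other pair within a group, so these 3 libraries may hold fewer independent ones. The question put to these libraries is whether the RNA of the methylation machinery differs once an ATAC subunit is removed. In bulk RNA, fewer cells with a transcript and less transcript per cell cannot be told apart.

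Reads assigned to genes numbered from 14315120, in Zzz3 auxin replicate 3, to 27884704. Counts also depended on GC content to a different extent in each library. GC-rich genes minus GC-poor genes gave a median log2 ratio of -0.63 for Control replicate 1, 0.47 for Zzz3 auxin replicate 3, and between -0.08 and 0.16 for the other 6. The degron removes protein, so the mRNA of a targeted gene is no check of the depletion. *Zzz3* had 182 to 186 CPM (reads scaled to library size by the trimmed mean of M values) for Control and 77.5 to 112 for Zzz3 auxin, and *Yeats2* had 90.9 to 95.8 for Control and 43.7 to 103 for Yeats2 auxin. Markers of ESCs were high in every group (8 of 8 tested, summed 4570 to 5319 CPM over all libraries), while 6 fibroblast markers summed to 6.61 to 11.9 CPM, with 1 of them at 0 in all libraries. Markers of 2-cell-like cells summed to 1.86 to 2.32 CPM for Control, 4.22 to 16 for Zzz3 auxin and 2.33 to 3.58 for Yeats2 auxin, and their part in the results below was not tested.

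The promoters of 3 members whose values stand out below differ widely in CpG content. Shown are the 100 bases before a RefSeq start site (GRCm38.p6), 5′ to 3′ on the gene's strand, with CpG dinucleotides in capitals. Where a gene had several RefSeq starts, the window with the most CpGs was taken.
Uhrf1, chr17:56304213-56304312, plus strand: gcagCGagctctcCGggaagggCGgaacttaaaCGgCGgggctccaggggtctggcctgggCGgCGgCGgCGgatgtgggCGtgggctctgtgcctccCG
Dnmt3b, chr2:153649349-153649448, plus strand: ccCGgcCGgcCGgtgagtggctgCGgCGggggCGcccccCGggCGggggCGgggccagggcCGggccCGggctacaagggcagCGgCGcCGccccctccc
Dnmt3l, chr10:78042187-78042286, plus strand: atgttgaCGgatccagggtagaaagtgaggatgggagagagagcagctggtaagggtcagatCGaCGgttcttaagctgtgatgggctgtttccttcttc
The stretches hold 11, 14 and 3 CpGs. Over windows of 300 bases (250 before to 50 after the start) the members' CpG-richest windows held 33 CpGs for *Dnmt1*, 33 for *Uhrf1*, 47 for *Dnmt3a*, 30 for *Dnmt3b*, 6 for *Dnmt3l*, 17 for *Tet1*, 57 for *Tet2* and 22 for *Tet3*, beside a median of 7 over 32851 RefSeq windows. By its richest window *Dnmt3l*, whose own promoter is known to be methylated by the enzymes it assists, was the only member below that median. The median counts every window, not the richest of each gene, and another window of *Dnmt1* held 2 CpGs. The letters TTTCGCGC, a form of the site of the E2F cell cycle factors searched on both strands, were in 1 window each of *Dnmt1* and *Uhrf1*, in no window of the other 6 members and in 0.323% of all windows. This motif was picked after the windows had been seen.

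Levels were compared between genes per kb of annotated exon. *Uhrf1* was the most abundant, at 151 ± 26.3 CPM per kb (SD over 8 libraries, highest 181), and its range did not overlap that of *Dnmt1*, the next gene at 56.9 ± 6.11. *Tet1* followed at 50.3 ± 8.54, *Dnmt3b* at 33.0 ± 5.57 and *Tet2* at 32.8 ± 4.87, and the ranges of neighbours in this stretch of the order overlapped. *Dnmt3l* had 19.9 ± 4.03, a range that overlapped that of *Tet2* although *Tet2* was higher in all 8 libraries. *Dnmt3a* at 2.33 ± 0.447 and *Tet3* at 0.36 ± 0.0757 were each separated from all other members. *Uhrf1* stood above 98.8% of the genes tested and *Tet3* above 16% of them. With the length of the longest transcript in place of all exons *Tet2* (60.3 CPM per kb) moved above *Tet1* (54.1) and *Dnmt3b* (39.0), and the other members kept their order.

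**Figure D1:**
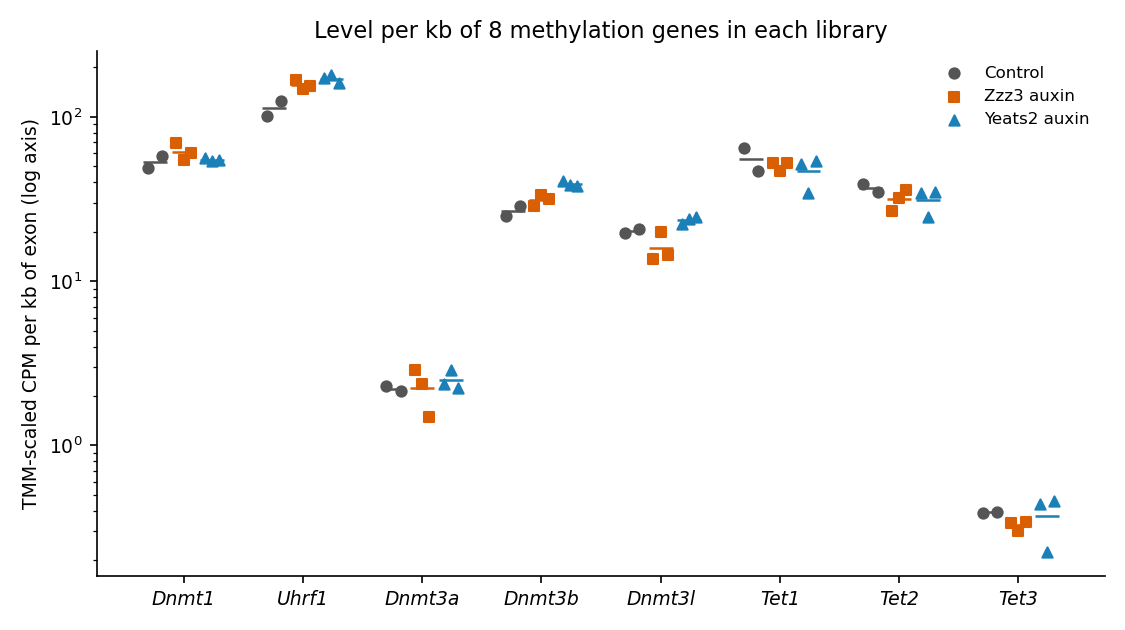
Level of each gene in each library in CPM per kb of exon on a log axis, with circles for Control, squares for Zzz3 auxin, triangles for Yeats2 auxin and a bar at each group's mean. *Uhrf1* reaches 181 and *Tet3* spans 0.225 to 0.457, and in *Uhrf1* and *Dnmt3b* every auxin library lies above both controls.

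Among the genes that maintain methylation, *Uhrf1* had more RNA in both auxin groups than in the controls, by less than 2-fold and without passing the test. *Uhrf1* (ENSMUSG00000001228, GRCm38 chromosome 17, 56303321 to 56323486, plus strand) had 434 and 532 CPM in the controls, 712, 626 and 659 in the Zzz3 auxin libraries and 734, 772 and 685 in those of Yeats2 auxin. All 6 auxin libraries were above both controls. The log2 fold change (FC) of Zzz3 auxin was 0.46 (SE 0.126, 95% interval 0.187 to 0.738, edgeR adjusted P 0.0882) and that of Yeats2 auxin 0.60 (SE 0.126, 0.319 to 0.872, adjusted P 0.0738), folds of 1.38 and 1.51. Yeats2 auxin was above Zzz3 auxin by 0.13 (interval -0.109 to 0.377, adjusted P 0.808), and their libraries overlapped.

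The call on *Uhrf1* depended on the test. In its own calls the study asked for a log2 FC beyond 1 in addition to the adjusted P. *Uhrf1* did not reach that size in either comparison. DESeq2, the tool of the study, gave adjusted P values of 0.0228 and 0.00283, and over all 16 alternatives the value ran from 0.0228 to 0.617 in Zzz3 auxin and from 0.00211 to 0.653 in Yeats2 auxin. Control replicate 1, the library with fewer reads from GC-rich genes, had the lowest value of *Uhrf1*, whose exons have 53.7% GC. Without it the log2 FCs were 0.32 and 0.46, without Control replicate 2 they were 0.62 and 0.75, and after correction for the GC and length trend of each library they were 0.32 and 0.47. The part of GC content in these differences was not tested.

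*Dnmt1* (chromosome 9, 20907209 to 20959888, minus strand) had 360 and 424 CPM in the controls, 514, 403 and 444 in the Zzz3 auxin libraries and 413, 396 and 403 in those of Yeats2 auxin. The auxin libraries overlapped the controls. Its log2 FCs were 0.21 in Zzz3 auxin (interval -0.0733 to 0.493, adjusted P 0.373) and 0.04 in Yeats2 auxin (-0.239 to 0.325, adjusted P 0.905), so changes of 1.41-fold up and 1.25-fold up remained possible.

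The ratio of *Uhrf1* to *Dnmt1* within a library is free of scaling between libraries, and the exons of both have close to the same GC content (53.7% and 54%). On the log2 scale of levels per kb it was 1.06 and 1.12 for the controls, 1.26, 1.43 and 1.36 for Zzz3 auxin, and 1.62, 1.76 and 1.56 for Yeats2 auxin. No values of the groups overlapped, with the order Control, Zzz3 auxin, Yeats2 auxin. How many other gene pairs separate in this way was not counted. Among single genes tested, 35.8% (Zzz3 auxin) and 40.3% (Yeats2 auxin) did not overlap with Control. The means were 1.09 ± 0.0411 (SD, n = 2), 1.35 ± 0.0835 (n = 3) and 1.65 ± 0.1 (n = 3), given as a description without a P value.

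**Figure D2:**
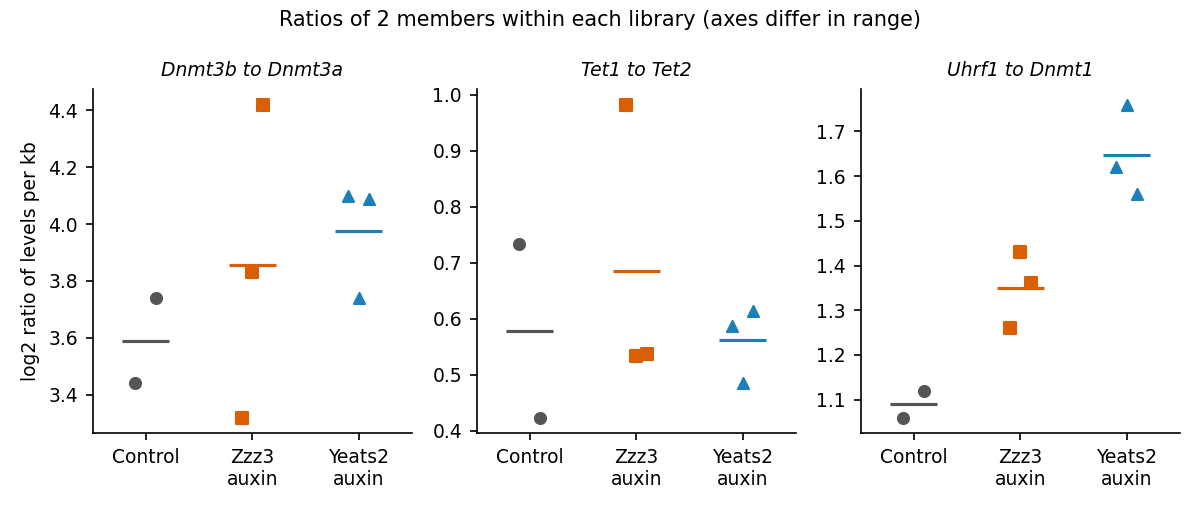
Log2 ratio of levels per kb of 2 members within each library, by group, with symbols for libraries and a bar at each mean; the vertical axes differ in range. For *Uhrf1* to *Dnmt1* the controls lie at 1.06 and 1.12 and the Yeats2 auxin libraries between 1.56 and 1.76, while for the other ratios at least 1 pair of groups overlaps.

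Of the de novo methyltransferases, *Dnmt3b* had more RNA in Yeats2 auxin without passing the test, and *Dnmt3a*, whose level per kb was the lower of both throughout, overlapped between groups. *Dnmt3b* (chromosome 2, 153649450 to 153687730, plus strand) had 127 and 146 CPM in the controls, 147, 171 and 161 in the Zzz3 auxin libraries and 207, 197 and 194 in those of Yeats2 auxin. No libraries of the 3 groups overlapped, although Zzz3 auxin replicate 1 was close to Control replicate 2. The share of all genes with 3 separate groups was not counted. The log2 FC was 0.23 in Zzz3 auxin (SE 0.116, interval -0.0255 to 0.482, adjusted P 0.278) and 0.55 in Yeats2 auxin (SE 0.117, 0.291 to 0.802, adjusted P 0.0739), a fold of 1.46. Yeats2 auxin was above Zzz3 auxin by 0.32 (interval 0.0937 to 0.544, edgeR adjusted P 0.779). By unadjusted P in Yeats2 auxin *Uhrf1* ranked 133 and *Dnmt3b* 139 of the 17532 genes. The log2 FC of *Dnmt3b* stayed under the 1 that the study asked for in addition to the adjusted P. DESeq2 gave *Dnmt3b* an adjusted P of 0.00383 in Yeats2 auxin, and the range over alternatives was 0.00383 to 0.639. Without Zzz3 auxin replicate 3, which is not in that comparison but shares the estimate of spread, *Dnmt3b* and *Uhrf1* had adjusted P values of 0.0293 and 0.0258. Control replicate 1 also had the lowest value of *Dnmt3b*, whose exons have 53.1% GC. Without it the log2 FCs of *Dnmt3b* were 0.13 (Zzz3 auxin) and 0.45 (Yeats2 auxin), and without Control replicate 2 they were 0.33 and 0.65. With GC and length correction they were 0.09 and 0.43. The part of GC content in these differences was not tested.

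*Dnmt3a* (chromosome 12, 3806007 to 3914443, plus strand) had 38.2 and 35.6 CPM in the controls, 48.0, 39.1 and 24.6 in the Zzz3 auxin libraries and 39.3, 48.2 and 37.2 in those of Yeats2 auxin. The lowest value was in Zzz3 auxin replicate 3, and both auxin groups overlapped the controls. The log2 FC was 0.02 in Zzz3 auxin (interval -0.48 to 0.52) and 0.17 in Yeats2 auxin (-0.328 to 0.673), with adjusted P values of 0.973 and 0.763. The log2 ratio of *Dnmt3b* to *Dnmt3a* per kb was 3.59 ± 0.21 for Control, 3.86 ± 0.549 for Zzz3 auxin and 3.97 ± 0.203 for Yeats2 auxin, and the Zzz3 auxin values, 3.32 to 4.42, spanned those of both other groups.

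*Dnmt3l*, the cofactor, was lower in Zzz3 auxin and higher in Yeats2 auxin by mean, and no contrast passed the test. *Dnmt3l* (chromosome 10, 78041947 to 78063622, plus strand) had 58.8 and 62.2 CPM in the controls, 40.7, 59.4 and 43.2 in the Zzz3 auxin libraries, and 66.3, 71.2 and 73.8 in those of Yeats2 auxin. All 3 Yeats2 auxin libraries were above all others, and 2 of the 3 Zzz3 auxin libraries were below both controls. The log2 FC was -0.34 in Zzz3 auxin (interval -0.686 to 0.00575, adjusted P 0.238) and 0.22 in Yeats2 auxin (-0.129 to 0.567, adjusted P 0.551). The direct contrast, Yeats2 auxin minus Zzz3 auxin, was 0.56 (SE 0.142, interval 0.248 to 0.87) with an unadjusted P of 0.00215 and an adjusted P of 0.779. In the no-filter alternative the contrast was 0.571 (SE 0.138), with an edgeR unadjusted P of 3.51e-05 and an adjusted P of 0.0171. That alternative called 117 genes in total in this contrast, where the fit reported here called 0. Without Zzz3 auxin replicate 2 the contrast of Zzz3 auxin with Control was -0.52 with an adjusted P of 0.0476. The opposite-strand gene *Aire* shares 67 exonic bases with *Dnmt3l* and had 19 to 56 reads per library, against 645 or more for *Dnmt3l*.

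The TET genes had lower means in both auxin groups than in the controls, with intervals that include no difference for all 3. *Tet1* (chromosome 10, 62804570 to 62908996, minus strand) had 1000 and 721 CPM in the controls, 813, 723 and 809 in the Zzz3 auxin libraries and 796, 531 and 831 in those of Yeats2 auxin. Its highest value was in Control replicate 1 and its lowest in Yeats2 auxin replicate 2, and its exons have 43.7% GC. The log2 FC was -0.14 in Zzz3 auxin (interval -0.557 to 0.281, adjusted P 0.715) and -0.26 in Yeats2 auxin (-0.677 to 0.159, adjusted P 0.559). Without Control replicate 1 the log2 FCs of *Tet1* were 0.11 and -0.0036, and without Control replicate 2 they were -0.35 and -0.47. With GC and length correction they were -0.027 and -0.15, so the lower means of *Tet1* depended on Control replicate 1.

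*Tet2* (chromosome 3, 133463679 to 133545139, minus strand) had 656 and 586 CPM in the controls, 449, 545 and 608 in the Zzz3 auxin libraries and 578, 414 and 593 in those of Yeats2 auxin. Both auxin groups overlapped the controls. Its log2 FCs were -0.22 (interval -0.592 to 0.156, adjusted P 0.489) and -0.23 (-0.609 to 0.139, adjusted P 0.552). The log2 ratio of *Tet1* to *Tet2* per kb was 0.579 ± 0.219 for Control, 0.685 ± 0.258 for Zzz3 auxin and 0.563 ± 0.0677 for Yeats2 auxin.

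*Tet3* (chromosome 6, 83362373 to 83459084, minus strand), the member with the fewest reads (85 to 193 per library), had 6.51 and 6.53 CPM in the controls, 5.60, 5.06 and 5.69 in the Zzz3 auxin libraries and 7.35, 3.76 and 7.64 in those of Yeats2 auxin. The Zzz3 auxin libraries were all below the controls, and the Yeats2 auxin libraries lay on both sides of them. Its log2 FCs were -0.26 (interval -0.863 to 0.339, adjusted P 0.616) and -0.06 (-0.66 to 0.532, adjusted P 0.935).

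**Figure D3:**
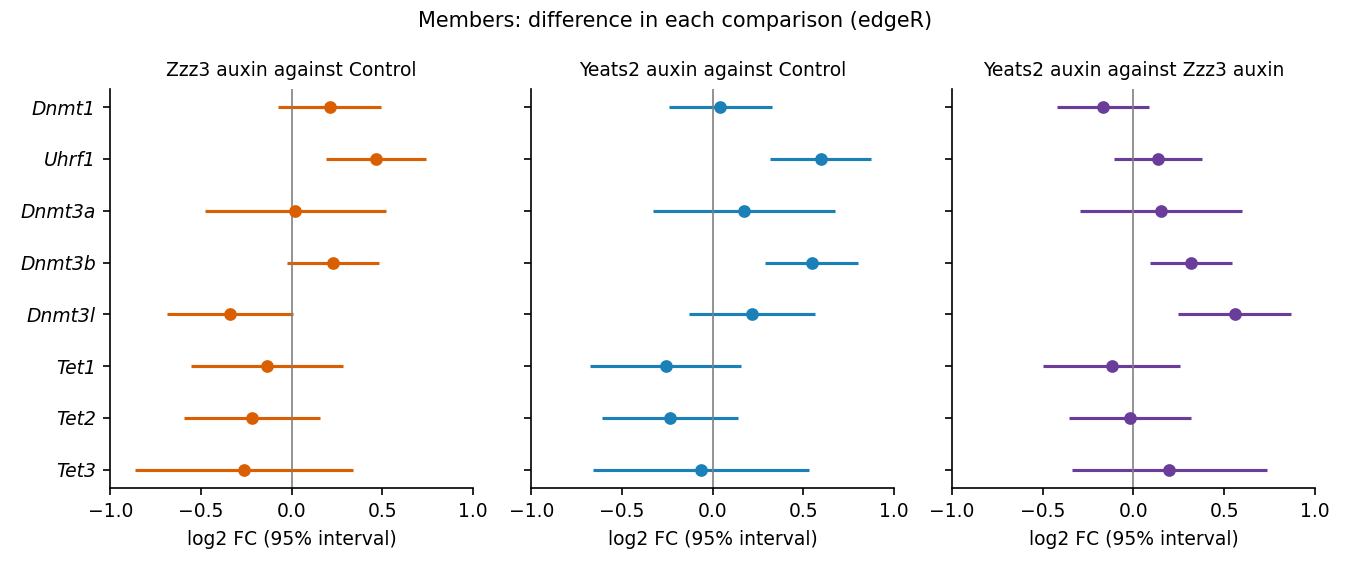
Log2 FC of each member with its 95% interval, in 1 panel for each depletion against Control and a last panel for Yeats2 auxin minus Zzz3 auxin. The interval of *Uhrf1* lies above 0 in both panels with Control, and that of *Dnmt3b* in the panel of Yeats2 auxin. In the last panel those of *Dnmt3b* and *Dnmt3l* lie above 0, and those of the TET genes span 0 in all panels.

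By edgeR's adjusted P under 0.05, 0 of the 8 members were called for Zzz3 auxin against Control, where 0.753% of all genes tested were, 0 for Yeats2 auxin against Control (0.445% of genes) and 0 in the direct comparison of both depletions (0% of genes). By an unadjusted P under 0.05, 1 member (*Uhrf1*) passed in Zzz3 auxin beside 21.7% of genes, 2 (*Uhrf1* and *Dnmt3b*) in Yeats2 auxin beside 14.6%, and 2 (*Dnmt3b* and *Dnmt3l*) in the direct comparison beside 6.25%. DESeq2's adjusted P called 1, 2 and 0 members, and 8.5%, 3.31% and 0.0171% of the genes to which it gave an adjusted P (13112, 13112 and 17531). The libraries of both groups did not overlap for 3 members in Zzz3 auxin (*Uhrf1* and *Dnmt3b* higher, *Tet3* lower) beside 35.8% of genes, for 3 in Yeats2 auxin (*Uhrf1*, *Dnmt3b* and *Dnmt3l* higher) beside 40.3%, and for 2 in the direct comparison (*Dnmt3b* and *Dnmt3l* higher) beside 11.1%. The median log2 FC of the members was -0.06 in Zzz3 auxin and 0.11 in Yeats2 auxin, beside 0.01 and -0.01 for all genes. Both comparisons with Control share the same 2 control libraries.

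**Figure D4:**
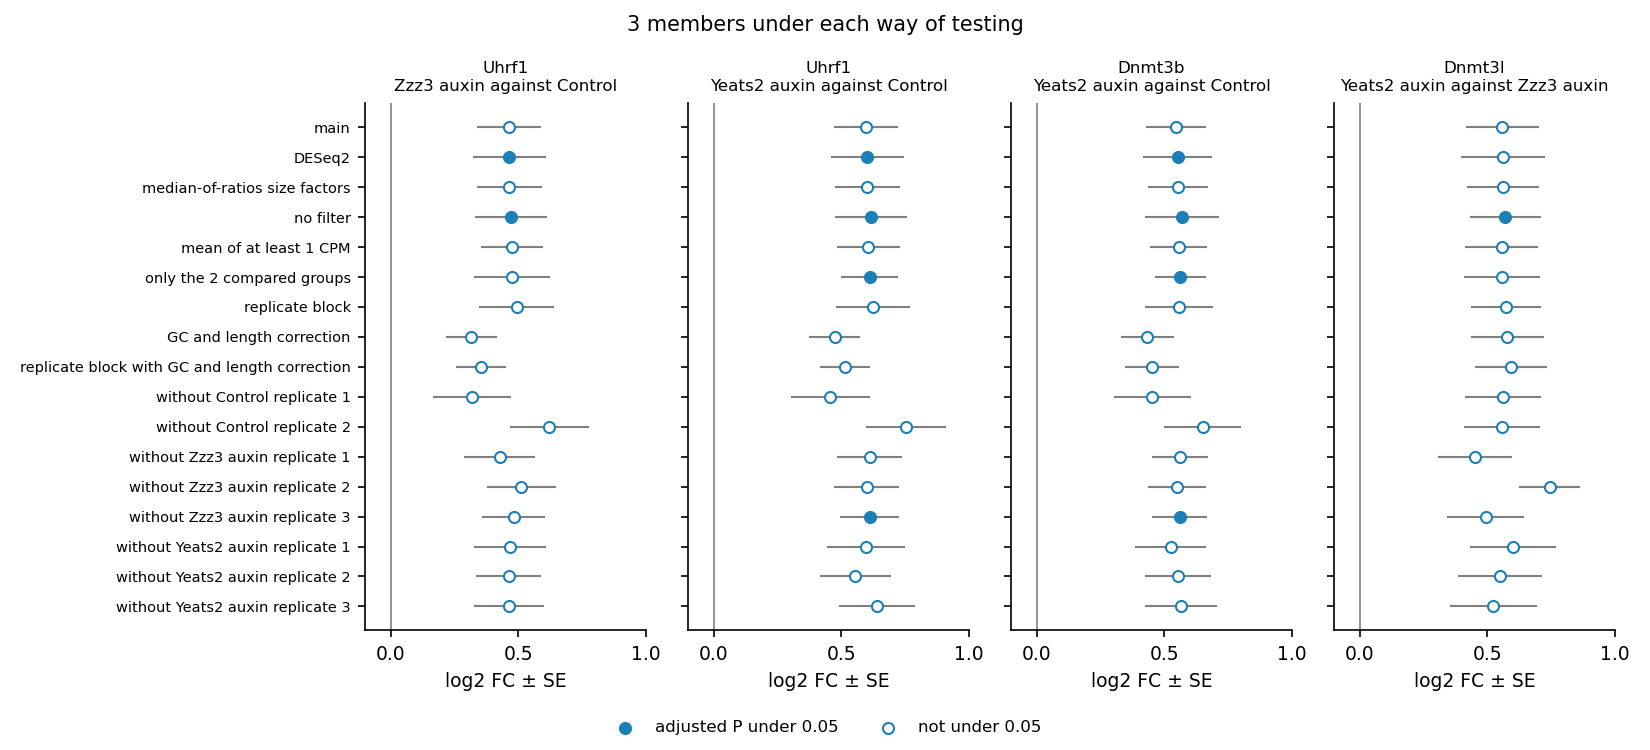
Log2 FC and its SE of *Uhrf1* (both comparisons with Control), *Dnmt3b* (Yeats2 auxin against Control) and *Dnmt3l* (Yeats2 auxin against Zzz3 auxin) under each way of testing, with filled points where the adjusted P was under 0.05. *Uhrf1* in Yeats2 auxin ranges from 0.46 to 0.75 and is filled in 4 of 16 alternatives.

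The genes whose pattern over the 8 libraries was closest to each member were found by the root mean square (RMS) difference of centred log2 CPM among 11972 other protein-coding genes. They were *Lonp1* (RMS 0.0451) and *Rangap1* (0.0583) for *Uhrf1*, *Magi1* (0.0452) and *Mocs1* (0.0463) for *Dnmt1*, and *Plin2* (0.0695) and *Cby1* (0.0702) for *Dnmt3b*. They were *Cnn3* (0.0837) and *Supt6* (0.0912) for *Dnmt3a* and *Raet1d* (0.1) and *Tmem177* (0.104) for *Dnmt3l*. For the TET genes they were *Ash1l* (0.0402) and *Ubn2* (0.0535) for *Tet1*, *Gnb5* (0.0559) and *Ptbp3* (0.0597) for *Tet2*, and *Cdk18* (0.121) and *Bmyc* (0.138) for *Tet3*. Among the members the closest pair was *Uhrf1* and *Dnmt3b* (RMS 0.152), and *Tet1* and *Tet2* followed (0.164). Of the protein-coding genes compared, 3.06% were closer to *Uhrf1* than *Dnmt3b* was, and 1.52% closer to *Dnmt3b* than *Uhrf1* was. Likewise 3.12% were closer to *Tet1* than *Tet2* was, and 4.96% closer to *Tet2* than *Tet1* was. These values describe libraries that share depth and GC trends, and a shared trend gives a shared pattern.

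The genes around the 8 members were examined in lists by role. Of the 10 partners of methylation maintenance, 0 were called in either comparison with Control, and the medians were 0.04 and 0.05. *Trim28*, a corepressor of imprints and retrotransposons, had log2 FCs of 0.55 (Zzz3 auxin, adjusted P 0.109) and 0.48 (Yeats2 auxin, 0.223). *Hells*, a remodeller needed for methylation of repeats, had -0.39 in Zzz3 auxin (0.196), and *Pcna*, the replication clamp, -0.24 in Yeats2 auxin (0.473). Outside the naming rule and picked after its values were seen, *Dppa3*, which can take UHRF1 off chromatin, had 17.4 CPM in Zzz3 auxin replicate 1 and 2.47 to 4.43 in the other libraries.

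Of the 10 regulators of de novo methylation, 0 were called in either comparison. *Ehmt2*, a histone H3 lysine methyltransferase, had 0.62 and 0.50 (adjusted P 0.122 and 0.278), and *Smchd1*, a chromosomal protein of the inactive X, had -0.32 and -0.38 (0.179 and 0.203). Of 15 base excision genes, 0 were called. *Parp1*, which senses strand breaks, had 0.56 and 0.54 (adjusted P 0.0762 and 0.134), its scaffold *Xrcc1* had 0.59 in Zzz3 auxin (0.0881), and *Ung*, a uracil glycosylase, had 0.31 in Yeats2 auxin (0.251).

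Of 8 genes listed by family as methyl-CpG readers 0 were called, with medians of -0.16 and -0.07. *Mbd3*, of the NuRD complex, had 0.50 in Zzz3 auxin (adjusted P 0.341) and 0.78 in Yeats2 auxin (0.25), and *Zbtb38* had 0.23 in Zzz3 auxin (0.309). Of 9 tested CXXC readers and TET partners 0 were called. *Cxxc1*, which guides H3K4 methylation, had 0.63 and 0.38 (0.113 and 0.38), and *Kdm2b*, which carries PRC1 to CpG islands, had 0.38 and 0.54 (0.201 and 0.166).

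Of 17 genes of the S-adenosylmethionine and folate cycle 0 were called. *Mthfd1*, a folate enzyme, had 0.40 in both (adjusted P 0.118 and 0.185), *Amd1*, which draws on the methyl donor for polyamines, had -0.36 in Zzz3 auxin (0.147) and *Mtrr*, of methionine synthase, had 0.33 in Yeats2 auxin (0.269). Of 10 genes that supply or remove 2-oxoglutarate 0 were called. *Idh3a* had -0.51 in Zzz3 auxin (0.113), *Idh2* had 0.36 and 0.40 (0.222 and 0.284), and *Idh1* had 0.38 in Yeats2 auxin (0.232).

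Of 15 tested germline genes that are known to be silenced by promoter methylation, 0 were called in Zzz3 auxin and 1, *Tex101*, in Yeats2 auxin, with medians of 0.40 and 0.35 beside 0.01 and -0.01 for all genes. *Tex101*, a cell surface protein of germ cells, had 0.493 and 0.454 CPM in the controls, 1.15, 1.36 and 1.2 in the Zzz3 auxin libraries and 1.35, 2.24 and 2.33 in those of Yeats2 auxin. All auxin libraries were above both controls, at levels near 1 CPM. Its log2 FC in Yeats2 auxin was 2.05 (SE 0.363, adjusted P 0.0408, range over alternatives 0.000362 to 0.472). *Rhox5*, an X-linked homeobox gene, had 1.31 and 1.45 (adjusted P 0.0576 and 0.0588), and *Taf7l*, a germ cell TFIID subunit, had 1.34 in Zzz3 auxin (0.0762). Both were also low: *Rhox5* had 0.987 and 1.32 CPM in the controls and 2.14 to 3.56 in the auxin libraries. *Taf7l* had 0.937 and 0.635 CPM in the controls and 1.55 to 2.53 in the auxin libraries. The list medians were not set beside genes of similar level.

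At an unadjusted edgeR P under 0.05, the list counts are set beside 21.7% of all genes for Zzz3 auxin and 14.6% for Yeats2 auxin against Control. For Zzz3 auxin they were 2 maintenance partners of 10 (1 higher, 1 lower), 2 de novo regulators of 10 (1 higher, 1 lower), 2 base excision genes of 15 (both higher) and 0 methyl-CpG readers of 8. They were also 2 CXXC readers or TET partners of 9 (both higher), 5 folate cycle genes of 17 (1 higher, 4 lower), 2 genes of 2-oxoglutarate of 10 (1 higher, 1 lower) and 4 germline genes of 15 (all higher). For Yeats2 auxin they were 1 maintenance partner (higher), 2 de novo regulators (1 higher, 1 lower), 4 base excision genes (3 higher, 1 lower) and 2 methyl-CpG readers (1 higher, 1 lower). The other lists held 1 CXXC reader (higher), 3 folate cycle genes (all higher), 2 genes of 2-oxoglutarate (both higher) and 5 germline genes (4 higher, 1 lower). DESeq2 called 6 and 2 genes of these lists in total, beside 8.5% and 3.31% of the 13112 genes to which it gave an adjusted P. Between both depletions edgeR called 0 list genes, with 0 to 3 per list at an unadjusted P under 0.05, and DESeq2 called 0.

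Markers of other states were low beside those of ESCs and none was called by edgeR. For Control, Zzz3 auxin and Yeats2 auxin in turn, formative or primed markers summed to 42.7 to 43.8, 43.2 to 51.5 and 35.1 to 43.3 CPM. Trophoblast markers summed to 35.8 to 43.4 CPM over all groups, primitive endoderm to 5.18 to 8.56, neuroectoderm to 2.53 to 6.91 and mesendoderm to 12.3 to 23. Log2 FCs of the 2-cell-like genes had a median of 2.34 (Zzz3 auxin, 4 of 4 tested at an unadjusted P under 0.05, 0 called) and 0.54 (Yeats2 auxin). Their highest sum, 16 CPM, was in the group that also held the highest *Dppa3* value.

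**Figure D5:**
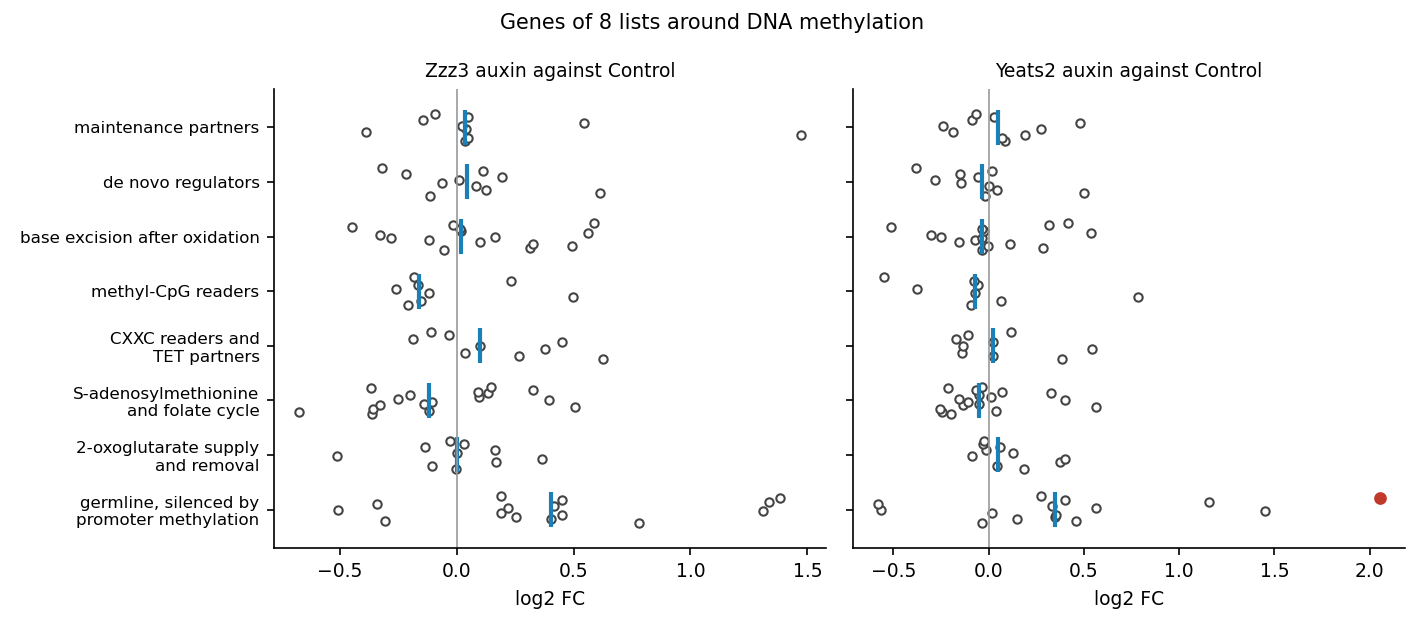
Log2 FC of every tested gene of 8 lists around DNA methylation, for Zzz3 auxin (left) and Yeats2 auxin (right) against Control, with open circles for genes not called, a filled red circle for a gene called and a blue bar at each list's median. The only filled circle is *Tex101* at 2.05 in Yeats2 auxin.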

How the data were processed

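Raw HTSeq read counts per gene of 8 total RNA libraries were used as the authors deposited them, 1 file per library, in the groups of the labels. According to the study, reads were trimmed with cutadapt, ribosomal RNA reads were removed, and uniquely aligned reads (STAR 2.5.3a, mm10) were counted in union mode with HTSeq on Ensembl annotation. The strand option is not given in the sources used here. The labels name poly(A) RNA, while the protocol describes ribosomal RNA depletion. The 5 tallies of unassigned reads were left out; those of reads in no gene or in several genes made up 31.01% to 38.03% of uniquely aligned reads. GENCODE annotation of GRCm38 matched 55141 genes, and 260 did not match.

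Counts were fitted in R 4.3.3 with edgeR 4.0.16 (filterByExpr, TMM, robust quasi-likelihood, all 8 libraries, 1 mean per group), two-sided, with Benjamini-Hochberg adjustment over 17532 genes within each comparison. Calls were made at an adjusted P under 0.05. The SE is the size of a log2 FC divided by the square root of F, and 95% intervals use the t distribution. DESeq2 1.42.0 was an alternative, with limma 3.58.1 for support. Figures and tables used Python 3.11.15, pandas 2.3.3, numpy 2.4.6 and matplotlib 3.10.9. The pipeline was tested on simulated data. Named were all members, the genes of each list called against Control, the 2 of lowest P in each comparison with Control, the 2 most like each member (mean of at least 1 CPM, prior count 2), and both targeted genes. Marker lists are given as sums, and 1 gene that met this rule is not reported here. Members, lists and rules were chosen with earlier results of these data known. Other alternatives were median-of-ratios factors, a mean of at least 1 CPM, no filter, only the compared groups, a replicate block, a GC and length correction (lowess span 0.3) and leaving out each library. Replicate numbers were taken as names only. With 2 controls the deviations from the group mean mirror each other, so correlations with Control cannot show whether numbers pair libraries. Between both depletions same-numbered libraries correlated at -0.0722 to 0.0455. Within groups no pair of libraries was a duplicate: the chi-square per gene was 3.82 for Yeats2 auxin replicates 1 and 3 and 22.1 to 53.9 for the other pairs. Yeats2 auxin replicates 1 and 3 were thus far more alike than any other pair, and whether they came from separate cultures is not stated. The 3 Yeats2 auxin libraries may therefore hold fewer independent ones. The nascent RNA data were not analysed here.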

Additional observations from a re-analysis of the deposited data

Results flagged for a closer look

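*Dnmt3l* is set apart because all 3 Zzz3 auxin libraries were below the control mean of 60.5 CPM and all 3 Yeats2 auxin libraries above it. Set directly against each other, Yeats2 auxin minus Zzz3 auxin gave a log2 FC of 0.559 with an edgeR adjusted P of 0.779 over all genes tested, so the difference did not pass the test. No groups were large enough for a test of single outlying libraries.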

How the results depend on the processing

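Counts of members called went from 0 to 1 in Zzz3 auxin against Control with DESeq2 or no filter, from 0 to 2 in Yeats2 auxin against Control with DESeq2, no filter or only the 2 compared groups, and from 0 to 1 in the direct comparison with no filter. Without single libraries they ran from 0 to 1, 0 to 2 and 0 to 0. All genes called in Zzz3 auxin, 132, were 1114 with DESeq2, 1542 with no filter, 0 with only the compared groups (2606 at an unadjusted P under 0.05), and 42 and 66 with the replicate block alone and with GC and length correction; without single libraries they ran from 0 to 841. In Yeats2 auxin, 78 became 434, 553, 454 and, with the replicate block, 32, and 132 with GC and length correction; without single libraries they ran from 0 to 217. In the direct comparison, 0 became 3 with DESeq2 and 117 with no filter, and 0 to 1 without single libraries (1095 genes had an unadjusted P under 0.05 by edgeR). Pathway genes called were 6 with DESeq2 and 1 with GC and length correction in Zzz3 auxin (0 to 3 without single libraries), and 2 and 2 in Yeats2 auxin (0 to 2); for Zzz3 auxin and Yeats2 auxin in turn they were 11 and 8 with no filter, 0 and 6 with only the compared groups, and 0 and 0 with the replicate block, beside 0 and 1 as reported. The causes were not tested.

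Of 384 alternative values of member log2 FCs, 357 kept direction and side of the threshold, 12 newly passed it and 15 turned sign. These were *Dnmt3a* in Zzz3 auxin (-0.14 with GC and length correction, -0.0011 with that and the replicate block, -0.19 to 0.25 without single libraries), *Dnmt1* in Yeats2 auxin (-0.096, -0.075 and -0.070 to 0.17), *Tet1* in Zzz3 auxin (-0.35 to 0.11 without single libraries), *Tet3* in Yeats2 auxin (-0.23 to 0.20), and in the direct comparison *Dnmt3a* (-0.064 to 0.38), *Tet1* (-0.24 to 0.057) and *Tet2* (0.0054 with both corrections, -0.13 to 0.13). With the replicate block the log2 FCs of *Uhrf1* were 0.49 (Zzz3 auxin) and 0.62 (Yeats2 auxin) (edgeR adjusted P 0.145 and 0.119). Same-numbered libraries of both depletions correlated at -0.0722 to 0.0455. Correlations with the 2 controls cannot show whether numbers pair libraries, and numbers were taken as names only. The Poisson error at the lowest count was 10.8% for *Tet3*, beside a fitted variation between libraries of 21.1%, and 1.07% for *Uhrf1*, beside 11.1%.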
